A study of Mus musculus with 22 samples.

Results

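Bcl11b, a gene on mouse chromosome 12, was read by 15 of the 235402 probes of a genomic array, and its copy number was followed in the thymus DNA of 22 Atm-deficient mice. Its probes are those that carry its name in the scanner files, from 105441816 to 105520687, and 950 probes of that chromosome, from 97502860 to 106695322, served as context for where its loss begins. It is 1 of 24624 autosomal genes on the array. Of the mice, 8 carried a thymic T-cell lymphoma and 14 had thymi without macroscopic findings. Genomic DNA of each mouse's thymocytes, labelled with Cy5, was hybridised against DNA of wildtype thymocytes, labelled with Cy3, on an array of its own. Atm deficiency is common to both groups of mice, none was treated, and neither the strain, the age, the sex nor the altered stretch of Atm is given in the sources used here. By the labels the wildtype thymocytes enter only as the common Cy3 channel, with the same dye orientation in all arrays. Values that bear on the orientation of N1, N3, N4 and N9 are given below. A value is the log2 of the Atm-deficient signal divided by the wildtype signal, with the autosomal median of its array at 0. In the text and in the plots L1 to L8 are the lymphoma mice and N1 to N14 the mice without lymphoma.

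Bcl11b, also known as Ctip2 and Rit1, is a zinc finger transcription factor that thymic progenitors switch on when they commit to the T lineage, and that holds back programmes of other lineages afterwards. It acts largely as a repressor, together with the NuRD chromatin remodelling complex, and it has a close paralog, Bcl11a. In mice it is a tumour suppressor of thymic lymphoma, where loss of a copy is a recurrent event. Atm is a kinase that responds to broken DNA, and mice without it develop thymic lymphomas with rearranged antigen receptor loci. Bcl11b lies on the reverse strand in the RefSeq annotation, next to a long stretch with few named genes, on its downstream side, which in the mouse holds an enhancer used in T-cell precursors. DNA has no expression, so the label thymocytes could not be checked against markers.

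Bcl11b was far below its wildtype level in 7 of the 8 lymphomas, with L1 as the exception, and low to a lesser degree in a minority of the other thymi. It was chosen because of this loss in these arrays, so its values are a description and no test is given for them. The mean of the 15 probes was lowest at -0.83, had a median of -0.64 and was highest at -0.13 in lymphoma, against a lowest of -0.54, a median of -0.05 and a highest of 0.39 without lymphoma. The group means were -0.61 ± 0.20 in lymphoma (SD, n = 8) and -0.08 ± 0.26 without lymphoma (SD, n = 14), a difference of -0.53. The groups overlapped only through L1: 5 of the 14 mice without lymphoma lay at or below its value of -0.13, and 0 at or below that of the next highest lymphoma, -0.61. The highest value without lymphoma is that of N1, an array that was also read with its sign turned. With the sign of N1, N3 and N4 turned N1 was at -0.39, the highest value without lymphoma was 0.18 in N13, and 6 of those mice lay at or below L1. With the sign of N3, N4 and N9 turned that count was 4.

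**Figure D1:**
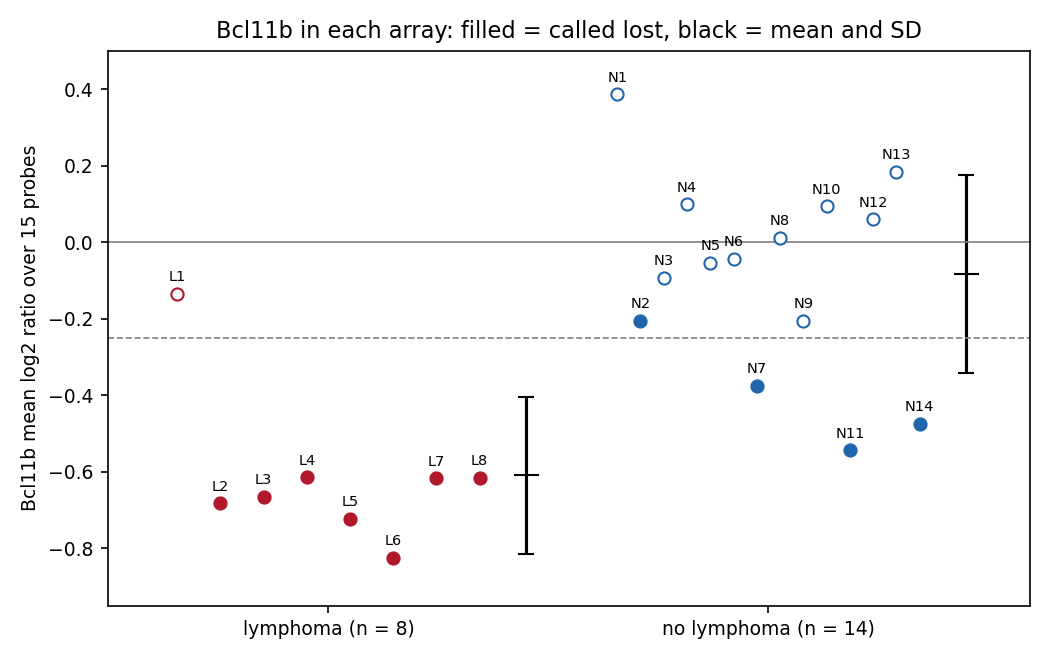
Mean log2 ratio (y axis, Atm-deficient over wildtype) of the 15 Bcl11b probes in each array, lymphoma on the left and no lymphoma on the right, with the mean and SD of each group in black. Filled points are arrays called lost by segmentation, the dashed line is the threshold of -0.25, and L2 to L8 sit between -0.83 and -0.61, below all arrays without lymphoma.

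In linear terms the 7 low lymphomas held a mean of 0.63 ± 0.03 of the wildtype signal (SD, n = 7), with a range of 0.56 to 0.65. A loss of 1 of 2 copies in every cell would give a log2 ratio of -1. How many cells of a thymus carried the loss and how many copies each had lost cannot be told apart from these ratios. L1 had 0.91 of the wildtype signal. N11, N14 and N7, the lowest mice without lymphoma, had 0.69, 0.72 and 0.77. N1 had 1.31, the highest, or 0.77 with its sign turned.

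Arrays differed in quality and in when they were scanned, and these values bear on the comparison. The noise of neighbouring probes was 0.15 to 0.37 in lymphoma and 0.13 to 0.55 without lymphoma, where N3, N4 and N9 were the noisiest. Spots not well above background made up 1.34% in L1 and 1.54% in N11, and 0.09% to 0.42% in the other arrays. With these spots left out the Bcl11b difference was -0.53. Only in N11 did the processed signals depart from the deposited log10 ratios, by 0.065 at the 99th percentile. With the deposited ratios the difference was also -0.53. Over 219650 autosomal probes, N4 correlated at r = -0.48 with L3 and at 0.87 with its best match; N3 and N9 had lowest correlations of -0.44 and -0.41, also with L3, and N11, N12 and N14 had theirs, -0.42 to -0.32, with N4. The labels give the same dyes for all arrays, so their direction was kept. With the sign of N1, N3 and N4 turned the Bcl11b difference was -0.47, and with that of N3, N4 and N9 turned it was -0.56. The 12 Atm probes averaged 0.19 ± 0.06 in lymphoma (SD, n = 8) and 0.05 ± 0.14 without lymphoma (SD, n = 14), and since the altered stretch is not known they do not check the labels. The Atm probe with the highest mean over the lymphomas was picked out, so its high values in lymphoma follow from the choice. It was at 0.95 to 1.32 in lymphoma and at -1.08 to 1.69 without lymphoma. It was below 0 in N1, N3 and N4, and at 0.08 in N6 and 0.44 in N5. Grouped by the scan times in the file headers, the arrays form 6 batches. The Bcl11b difference was -0.27, -0.65, -0.15 and -0.90 within the 4 batches that hold both groups (batches 1, 3, 5 and 6) and -0.50 with scan batch as a block, while batches 2 and 4 hold only mice without lymphoma. Batches 1 and 6 hold 1 mouse without lymphoma each, batch 5 holds 1 lymphoma, and batch 3 holds 2 mice of each group. The differences in batches 1, 5 and 6 thus rest on a single array in 1 of the groups. Batch 2 consists of N1, N3 and N4.

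The sequences of 5 of the 15 probes are shown, because they mark the ends of the gene and the probes that behave differently within it. Probes are numbered from the low-coordinate end. Probes 1 and 15 lie at the ends of the measured stretch, probe 3 was low in every lymphoma, probe 5 stood apart in N7 and N14, and probe 9 hardly differed between the groups. They are given in lower case as the scanner files list them, with no base singled out by capitals.
probe 1: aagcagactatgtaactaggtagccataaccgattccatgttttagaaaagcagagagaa
probe 3: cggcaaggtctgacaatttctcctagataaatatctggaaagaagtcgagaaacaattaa
probe 5: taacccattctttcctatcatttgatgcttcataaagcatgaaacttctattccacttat
probe 9: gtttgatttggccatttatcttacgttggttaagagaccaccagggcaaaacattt
probe 15: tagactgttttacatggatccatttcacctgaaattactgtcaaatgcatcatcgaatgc
They lie on chromosome 12 at 105441816 to 105441875, 105456325 to 105456384, 105467047 to 105467106, 105488101 to 105488156 and 105520628 to 105520687. The genome build of these coordinates and the exon or intron that each probe falls in are not given in the sources used here.

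As hybridisation targets the Bcl11b probes were ordinary ones. Their GC content was 31.7% to 39.3% with a median of 36.7%, equal to the median of 36.7% over all autosomal probes. They were spaced more closely, by a median of 5362 bp against 7850 bp over all autosomal probes. No Bcl11b probe held AGCT or GTAC, the sites at which the DNA was cut before labelling with AluI and RsaI, and 0.035% of autosomal probes did. Of the 330 Bcl11b spots over 22 arrays, 0 carried an outlier flag, 0 were saturated and 1 was not well above background.

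The loss covered the whole gene in the low lymphomas, and single probes varied around it from array to array. All 15 probes were lower on average in lymphoma, by -0.74 to -0.02, with a median of -0.57. A log2 ratio of -0.25 or less was reached in at least 7 lymphomas by 10 probes and in all 8 by 3 probes. Probe 3 was at -1.04 to -0.46 in lymphoma with a median of -0.89, and at -0.85 to 0.23 without lymphoma with a median of -0.15. Probe 15, at the high-coordinate end, where the gene's 5′ end lies, was at -0.98 to -0.05 in lymphoma with a median of -0.64, and at -0.73 to 0.31 without lymphoma with a median of -0.03. The groups overlapped at both probes: N11 and N6 (-0.85 and -0.49) lay below L8 at probe 3, and at probe 15 N11 lay among the lymphomas and L1 among the other mice.

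Probe 9 was the exception within the gene. It was at -0.79 to 0.42 in lymphoma with a median of -0.43, and at -1.06 to 0.41 without lymphoma with a median of -0.24, a difference of -0.02. The groups overlapped along their whole range, and the noisy arrays N3, N4 and N9 gave 3 of the low values without lymphoma, -1.06, -0.59 and -0.88. The same arrays read -1.09, -0.81 and -1.28 at probe 13 and 0.91, 0.95 and 0.63 at probe 2. Probe 5 read -1.38 in N7 and -1.45 in N14, well below the means of those arrays over the gene, -0.37 and -0.48. Probe 14 read -1.59 in L6 but 0.16 in L8. At probe 5 N7 and N14 thus read below all 8 lymphomas, whose lowest value was -1.23.

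**Figure D2:**
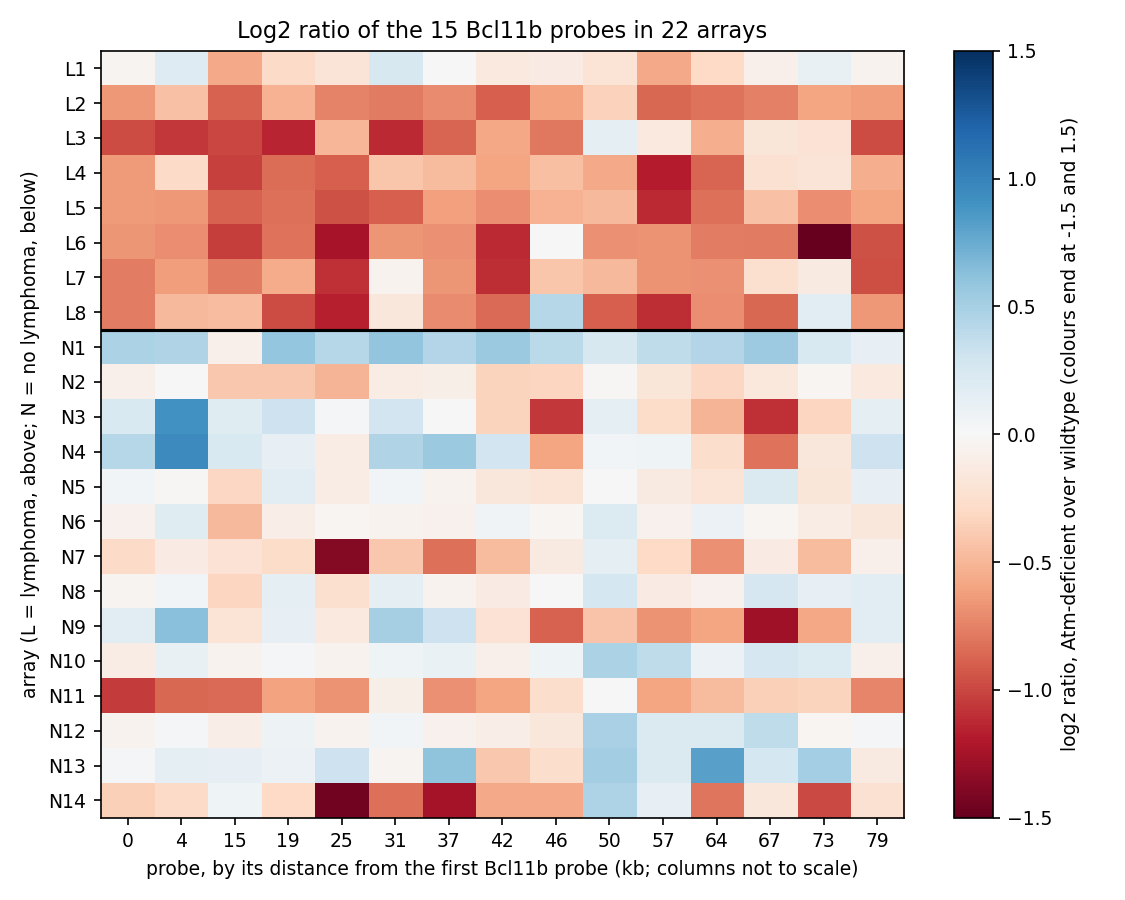
Log2 ratio (colour, Atm-deficient over wildtype) of each Bcl11b probe (columns, by distance from the first probe in kb) in each array (rows, lymphoma above the line and no lymphoma below it). L2 to L8 and N11 are red across nearly all probes, and the columns palest on average in lymphoma are probes 9 and 14.

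No boundary of a loss called over Bcl11b fell inside the gene. The 5 probes at the low-coordinate end averaged -0.71 ± 0.23 in lymphoma and -0.07 ± 0.34 without lymphoma. The middle 5 averaged -0.52 ± 0.21 in lymphoma and -0.06 ± 0.25 without lymphoma, and the 5 at the high-coordinate end -0.60 ± 0.23 in lymphoma and -0.11 ± 0.31 without lymphoma (SD, n = 8 and n = 14 throughout). Of the 53 segment boundaries found in the context over all arrays, 1 lay inside the gene. It was in N9, between probes 7 and 8, and separated long segments of -0.04 (2730 probes) and -0.23 (1398 probes), so that probes 8 to 15 of N9 lay in the lower one.

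The gene was close to the level of its surroundings in the lymphomas, but not in N2. Within 1 Mb on the low-coordinate side (47 probes) the mean was -0.71 ± 0.13 in lymphoma (SD, n = 8) and -0.01 ± 0.27 without lymphoma (SD, n = 14). Within 1 Mb on the high-coordinate side (124 probes) it was -0.73 ± 0.23 in lymphoma and -0.06 ± 0.25 without lymphoma. In the 7 low lymphomas Bcl11b was 0.05 to 0.19 above the mean of its flanks, with a median of 0.14, while without lymphoma this difference had a median of -0.01 and ran from -0.49 to 0.14. The lowest was N2, whose gene mean was -0.21 while its flanks were at 0.23 and 0.31. The median of all chromosome 12 probes in N2 was 0.25.

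Segmentation joined neighbouring probes into stretches of one level, and a stretch with a mean of -0.25 or less over the middle of the gene was called lost. Bcl11b was called lost in 7 of 8 lymphomas (L2 to L8) and in 4 of 14 mice without lymphoma (N2, N7, N11 and N14). Among 12991 autosomal genes with at least 3 probes, 0.316% were called lost in 7 or more lymphomas, all of them on chromosome 12, 0.346% in 4 or more mice without lymphoma, and 0.0308% in both. These shares come from the same contrast by which the gene was chosen. The segment over Bcl11b had a mean of -0.90 to -0.73 in the called lymphomas. It was -0.69 in N11, -0.37 in N14, and -0.28 in both N2 and N7. The calls without lymphoma gathered in scan batch 5, where all 3 mice without lymphoma (N7, N11 and N14) and the 1 lymphoma (L8) were called. In the other batches 6 of 7 lymphomas and 1 of 11 mice without lymphoma were called, and the part of the batch in these calls was not tested.

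The calls without lymphoma depended on the threshold, and those in both groups changed under an alternative processing, normexp. N2 and N7 were the called arrays nearest the threshold. The nearest segments outside it were that of N9 at -0.23, over the high-coordinate part of the gene, and that of L1 at -0.18. The middle of the gene fell between the last probe of one N9 segment and the first of the next, and N9 was read by the one before it, at -0.04. At -0.3 the calls were 7 in lymphoma and 2 without lymphoma, and at -0.4 they were 7 in lymphoma and 1 without lymphoma. With normexp background correction they were 4 in lymphoma (L2, L3, L4 and L6) and 0 without lymphoma, and the group means were -0.32 in lymphoma and -0.02 without lymphoma. The counts stayed at 7 in lymphoma and 4 without lymphoma with other penalties, other smallest segments and centring on the mode. At a threshold of -0.2 they were also 7 in lymphoma and 4 without lymphoma, but 7 in lymphoma and 5 without lymphoma, N9 included, when any segment over the gene could make the call. The segment of N1 over the gene was at 0.39, further from 0 than the threshold, so its call depends on the sign kept. The calls were not repeated with signs turned.

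In the lymphomas the loss began at a different place in each mouse, at a distance of 1.24 to 7.96 Mb on the low-coordinate side of Bcl11b. L5 and L3 had their starts in Kcnk13, which encodes a potassium channel. In L5 the last probe before the loss ended at 97471121 and the loss began at 97482779, and in L3 these positions were 97545527 and 97552433. L2 began inside Ccdc88c, which encodes a scaffold of Wnt signalling, between 98515103 and 98521898. These losses and the one in L6 ran to the last probe of the chromosome at 117798928, and were 19.3 to 20.3 Mb long. These lengths pass over short interruptions of fewer than 20 probes, a rule chosen after the data were seen. Without it L2 began at 101453240, and the losses ended at 112546297 in L3, before 10 probes at 0.23, at 112799237 in L5, before 6 probes at 0.04, and at 112585036 in L6, before 5 probes at -0.12. A boundary right after 112546297 was also found in L4, L8, N5 and N6. In N5 and N6, which had no loss called over Bcl11b, the next 7 and 6 probes read -1.61 and -1.56.

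The remaining lymphoma losses began closer to the gene. L8 began between Serpina3m and Serpina3n, which encode serine protease inhibitors, at 101898112. Before that lay 71 probes at 0.37 and, further out, a segment at -0.53, so L8 was also low beyond the start given here. Its loss ended at 109485773, before 28 probes at -0.20, and it was low again from 109705998; without passing over interruptions it ended at 108155779. L4 began between Papola, a poly(A) polymerase gene, and Vrk1, a kinase gene, at 103361569, and it too reached the last probe, or ended at 112546297 without passing over interruptions. L7 began between Vrk1 and Bcl11b, with the last probe before the loss ending at 104174359 and the loss starting at 104197561, 1.24 Mb from Bcl11b. It ended at 107786690, followed by stretches of 0.64 and 1.27 before a further loss at -0.78 from 110953308, and with a length of 3.59 Mb it was the shortest in lymphoma.

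**Figure D3:**
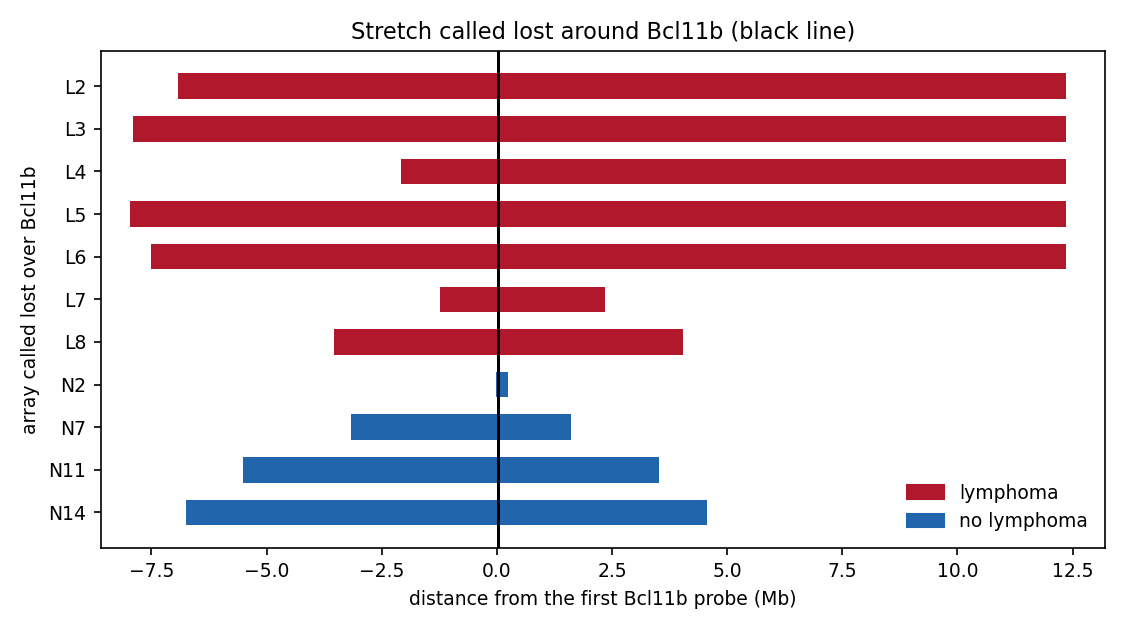
Stretch called lost around Bcl11b (x axis, distance from the first Bcl11b probe in Mb) in the 11 arrays called lost, lymphoma above and no lymphoma below, with the gene as a black line. L2 to L6 reach the last probe of the chromosome once interruptions of fewer than 20 probes are passed over, L7 spans 3.59 Mb and N2 spans 0.262 Mb.

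The stretch that all 7 lymphoma losses share is therefore that of L7, from 104197561 to 107786690. It holds probes of 38 genes, of which 14 have a name that is not only an accession. Besides Bcl11b these are Setd3, Ccnk, Cyp46a1, Evl, Degs2, Yy1, Slc25a29, Slc25a47, Wars, Wdr25, Dlk1, Meg3 and Rtl1. Bcl11b is the first of the named genes on the side where the losses begin, and the last before it, Vrk1, lay outside the loss of L7. Of the imprinted genes in the stretch, Meg3 averaged -0.68 ± 0.25 in lymphoma and 0.03 ± 0.34 without lymphoma, and Dlk1 -0.64 ± 0.46 in lymphoma and 0.15 ± 0.58 without lymphoma (SD, n = 8 and n = 14). Rtl1 averaged -0.51 ± 0.20 in lymphoma and 0.02 ± 0.34 without lymphoma (SD, n = 8 and n = 14). Meg3 has 3 probes, but Dlk1 and Rtl1 have only 2 each. Without lymphoma Dlk1 ran from -1.13 in N14 to 0.99 in N2.

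The probes of Vrk1 and Bcl11b are 1.87 Mb apart, and 85 probes lie in this gap, which is the downstream side of the gene. Their mean was lowest at -0.84, had a median of -0.71 and was highest at -0.46 in lymphoma, against a lowest of -0.71, a median of 0.02 and a highest of 0.37, in N1, without lymphoma. All 8 lymphomas were below all mice without lymphoma but N11. L1 was at -0.49 here, although it was at -0.13 over Bcl11b. L7, whose loss begins within the gap, was at -0.46. The sources used here do not place the T-cell enhancer, so no probe was assigned to it.

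L1 was the lymphoma without a called loss over the gene, yet chromosome 12 was broken near it as well. Up to 100953175 its segments were at 1.15 to 1.34, a gain. From 100965573 it was at -0.74 and, after 10 probes at -0.12, at 1.22 from 101453240 to 101799852, and it then lay at -0.68 up to 104056195. The segments after that were at -0.46 and, from 105364339 on, at -0.18. The steps towards the gene thus came in the gap between Vrk1 and Bcl11b, and Setd3 on the far side was at -0.23.

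Several arrays changed level at the Serpina1 and Serpina3 genes, a cluster of related serine protease inhibitors that the boundaries placed between 101204822 and 101898112. L2 and L6 had short stretches there that were less low than the loss around them, 5 probes at -0.04 in L2 and 12 probes at -0.32 in L6. L1 and L8 had higher stretches there, 1.22 over 62 probes in L1 and 0.37 over 71 probes in L8. A loss in N2 that does not reach Bcl11b began in the same cluster, at 101318909. Family members with near-identical sequence can share hybridisation, so ratios over this cluster are to be read with caution. Whether shared hybridisation has a part in these level changes was not tested.

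**Figure D4:**
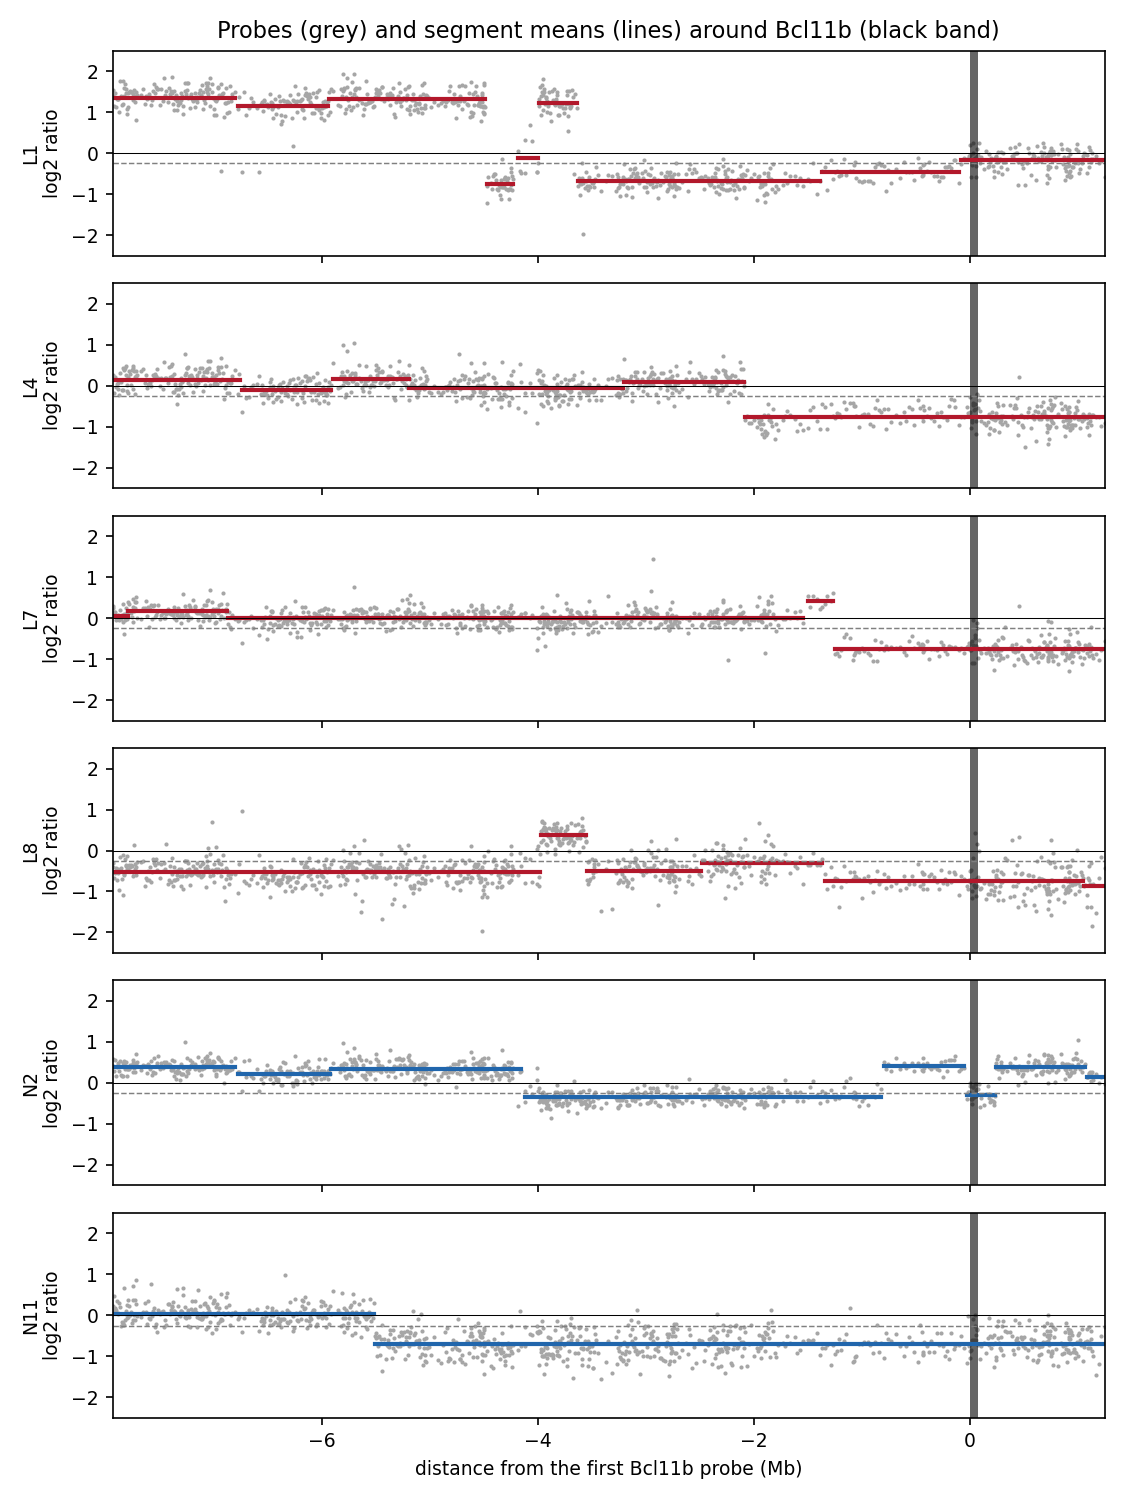
Probes (grey points) and segment means (lines) by distance from the first Bcl11b probe (x axis, Mb) on the log2 ratio scale (y axis) in 4 lymphomas (L1, L4, L7 and L8) and 2 mice without lymphoma (N2 and N11), with Bcl11b as a black band and the threshold of -0.25 dashed. The loss begins at the position of each array's last downward step before the gene in L4, L7 and N11, and in N2 a stretch of 33 probes drops between flanks of 0.42 and 0.40.

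The 4 losses without lymphoma were of different kinds. In N2 it was 33 probes from 105415975 to 105677671, 0.262 Mb, at -0.28 between neighbours of 0.42 and 0.40. It began 0.026 Mb before the first Bcl11b probe and ended inside Setd3, so Bcl11b was the gene it held whole. The other loss in N2, at -0.34, covered 101318909 to 104623188. N11 had a loss of 9.04 Mb at -0.69 that began in Lgmn, a lysosomal protease gene, at 99932139 and ended at 108971351, and it was low again, at -0.69, from 110958969. N14 began between Ppp4r3a, a phosphatase subunit gene, and Catsperb, a sperm channel subunit gene, at 98702768, and its segments stayed at -0.25 to -0.37 up to the last probe, apart from 2 short ones of 5 and 7 probes at -1.36 and -1.18. The boundary at which N14 began was also found in L4, as a step from 0.13 to -0.10. L1, L5 and N2 had other boundaries between Ppp4r3a and Catsperb, so a change of level there was not particular to N14. The loss called in N14 ended at 110008853, since the segment after it, which rounds to -0.25, was just above the threshold.

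The start found in N7 is not a sharp edge. Its segment over Bcl11b was at -0.28 and the long segments on both sides at -0.24, just above the threshold, so the call reflects a shallow level from 87926734 to the end of the chromosome. The 5 probes at -0.84 with which its called loss begins lie in Clmn, the gene of an actin-binding protein, and are the same 5 probes that read -2.18 in L6. N7 and N14 correlated at r = 0.82 over autosomal probes, the closest match for both. The start of N7 moved to 102.5 Mb with a penalty factor of 2 and to 87.9 Mb with a factor of 5 or a smallest segment of 10 probes.

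The named genes next to Bcl11b followed the breakpoints from array to array. On the low-coordinate side, Bdkrb2, a bradykinin receptor gene, averaged -0.51 ± 0.40 in lymphoma and -0.06 ± 0.26 without lymphoma, and Atg2b, an autophagy gene, -0.51 ± 0.43 in lymphoma and -0.07 ± 0.36 without lymphoma. Gskip, whose product binds GSK3 kinase, averaged -0.50 ± 0.43 in lymphoma and -0.10 ± 0.28 without lymphoma. Papola averaged -0.48 ± 0.39 in lymphoma and -0.12 ± 0.31 without lymphoma. In L4 the step fell just behind it, with Papola at 0.16 and Vrk1 at -0.98. Vrk1 averaged -0.68 ± 0.34 in lymphoma and -0.12 ± 0.25 without lymphoma. In L7 the step fell behind Vrk1, which was at 0.02 while Bcl11b was at -0.62.

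On the high-coordinate side the spread over the lymphomas was narrower for most genes. Setd3, which encodes an actin methyltransferase, averaged -0.74 ± 0.21 in lymphoma and -0.19 ± 0.23 without lymphoma. Ccnk, the gene of cyclin K, averaged -0.71 ± 0.24 in lymphoma and -0.00 ± 0.20 without lymphoma. Cyp46a1, a cholesterol hydroxylase gene, averaged -0.63 ± 0.30 in lymphoma and -0.11 ± 0.36 without lymphoma. Evl, a regulator of actin filaments with 26 probes, averaged -0.70 ± 0.23 in lymphoma and -0.01 ± 0.27 without lymphoma. Degs2, an enzyme of sphingolipid synthesis with 3 probes, averaged -0.77 ± 0.48 in lymphoma and 0.00 ± 0.35 without lymphoma (SD, n = 8 and n = 14 for all these genes). N2 was at -0.15 for Setd3 but at 0.37, 0.42 and 0.44 for Ccnk, Cyp46a1 and Evl.

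Over the whole context, 65 genes had at least 3 probes, and all 65 were lower on average in lymphoma. The differences ran from -0.81 to -0.04 with a median of -0.34. Further from Bcl11b the lymphomas were more mixed: Rin3, a Rab exchange factor gene from 99780222 to 99881462, averaged -0.30 ± 0.76 in lymphoma and -0.02 ± 0.24 without lymphoma, with L1 at 1.29. Dicer1, the nuclease of microRNA maturation, averaged -0.61 ± 0.38 in lymphoma and -0.09 ± 0.29 without lymphoma. Tcl1, an activator of Akt signalling, averaged -0.54 ± 0.41 in lymphoma and -0.03 ± 0.41 without lymphoma (SD, n = 8 and n = 14).

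**Figure D5:**
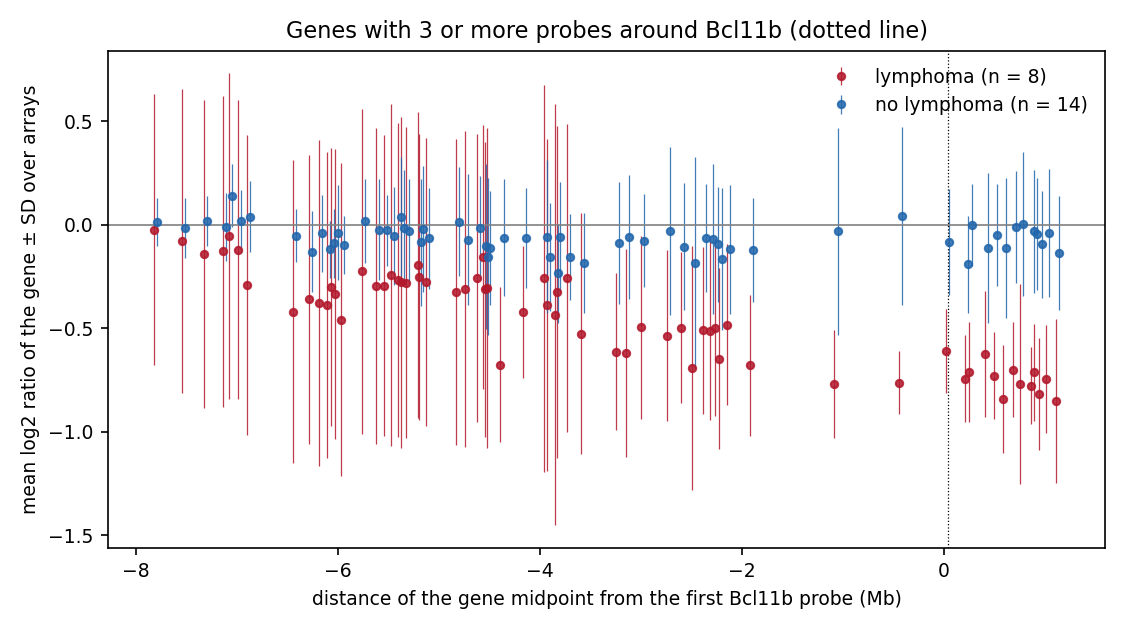
Mean log2 ratio with SD (y axis) of the 65 genes with at least 3 probes around Bcl11b in lymphoma (red, n = 8) and without lymphoma (blue, n = 14), by the distance of the gene's midpoint from the first Bcl11b probe (x axis, Mb), with Bcl11b at the dotted line. Bcl11b is at -0.61 ± 0.20 in lymphoma and -0.08 ± 0.26 without lymphoma. It is not the lowest gene in lymphoma, where Vrk1 and Setd3 on either side are at -0.68 ± 0.34 and -0.74 ± 0.21. Papola, further out than Vrk1, is at -0.48 ± 0.39 in lymphoma.

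The genes most like Bcl11b over the 22 arrays lay on its own chromosome. On chromosome 12 Pearson's r with Bcl11b was 0.95 for Ptprn2, a phosphatase-like receptor of secretory granules, 0.95 for Setd3, 0.94 for AY182534, 0.94 for Dnah11, an axonemal dynein gene, and 0.93 for X79907. Of the 50 genes with the highest r among 12990 compared, 37 were on chromosome 12, and the median r of all genes was -0.12. All points share the same arrays and the same wildtype channel, and the group difference itself enters r. Within the groups r of Setd3 was 0.95 over the 8 lymphomas and 0.85 over the 14 mice without lymphoma.

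On other autosomes the likest patterns were of far smaller size. They were those of Slco5a1 with r = 0.84, Col12a1 with 0.84, BC096533 with 0.83, Pde3a with 0.82 and Ephb1 with 0.81. Within the lymphomas r was 0.61, 0.54, 0.09, 0.33 and 0.73 in the same order. Within the mice without lymphoma it was 0.78, 0.87, 0.82, 0.85 and 0.71. Slco5a1 averaged -0.04 ± 0.04 in lymphoma and 0.03 ± 0.06 without lymphoma. Col12a1, a collagen gene, averaged -0.13 ± 0.07 in lymphoma and -0.03 ± 0.08 without lymphoma (SD, n = 8 and n = 14).

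Genes that work with Bcl11b were then read from a fit over all genes, limma with Benjamini-Hochberg adjustment over 12991 genes. In this fit 867 genes (6.67%) were higher and 326 (2.51%) lower in lymphoma, with a median difference of 0.05 over all genes. Of the 19 genes of the paralog, the NuRD complex and other chromatin cofactors, 15 were tested. Of these 1 was higher, 0 were lower and 14 did not pass the test, and their median difference was 0.07. These counts are near the shares of all genes called, so they are no result about the list. The higher gene was Gatad2a, a NuRD subunit, at 0.13 ± 0.04 in lymphoma (SD, n = 8) and 0.03 ± 0.06 without lymphoma (SD, n = 14). Its difference was 0.10 (SE 0.03, limma adjusted p = 0.0358), it was above 0 in 8 of 8 lymphomas, and the groups overlapped. At an unadjusted p under 0.05, which 18.4% of all genes met as higher and 7.71% as lower, 1 member was higher and 0 were lower. Mta1, a NuRD subunit, lies on chromosome 12 at 110627666 to 110659345, within the losses of most lymphomas. It was at -0.93 to -0.62 in 6 lymphomas but at 0.32 in L1 and 1.59 in L7, and averaged -0.34 ± 0.87 in lymphoma (SD, n = 8) and 0.11 ± 0.35 without lymphoma (SD, n = 14; limma adjusted p = 0.244). The paralog Bcl11a, on chromosome 11, averaged -0.08 ± 0.06 in lymphoma and -0.02 ± 0.08 without lymphoma (limma adjusted p = 0.272).

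Of 23 genes of the T-lineage programme 13 were tested. Of these 1 was higher, 0 were lower and 12 did not pass the test, and their median difference was 0.15. Over all genes 6.67% were higher and 2.51% lower, which is near these counts, so they are no result about the list. The higher gene was Notch1, the receptor that starts T-cell development, at 0.75 ± 0.80 in lymphoma (SD, n = 8) and 0.06 ± 0.27 without lymphoma (SD, n = 14). Its difference was 0.70 (SE 0.22, limma adjusted p = 0.0462). L3, L1 and L2 were highest at 2.20, 1.75 and 0.89, all 8 lymphomas were above 0, and the groups overlapped. Tcf7, a factor that acts upstream of Bcl11b, averaged 0.16 ± 0.21 in lymphoma and -0.15 ± 0.25 without lymphoma (limma adjusted p = 0.0544), and Gata3, another early T-lineage factor, 0.36 ± 0.25 in lymphoma and 0.07 ± 0.26 without lymphoma (limma adjusted p = 0.0924). At an unadjusted p under 0.05 limma gave 6 of the 13 members higher and 0 lower, where 18.4% of all genes were higher and 7.71% lower at that level. With scan batch as a term neither call held, at adjusted p = 0.352 for Gatad2a and 0.496 for Notch1. The unadjusted count of higher T-lineage members was 1 with scan batch as a term, 3 with normexp and 9 with centring on the mode. The shares of all genes in those fits are not given here.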

How the data were processed

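Array comparative genomic hybridisation was deposited for 22 mice as 2-colour scanner files with spot intensities, and the series value table holds the authors' log10 ratios. Signals were extracted with Agilent Feature Extraction 9.1, per the submitters' processing notes. Per the file headers the processed intensity is already background-subtracted and dye-normalised. Log2 ratios of red over green processed signals were computed from these deposited intensities, without control and outlier-flagged spots. Replicate spots were averaged per probe, and the autosomal median of each array was subtracted, with no loess or quantile step. Chromosomes were segmented by least-squares partitioning (penalty factor 3, at least 5 probes), and a segment mean of -0.25 or less was a loss. In measuring its extent, interruptions of fewer than 20 probes were bridged, a rule chosen after seeing the data. Gene means (autosomal genes with at least 3 probes) were fitted with limma 3.58.1 (R 4.3.3), with adjusted p under 0.05 as the threshold. Scripts were tested on simulated data. Groups come from the sample titles, which name separate mice. The arrays' number limits the precision. Bcl11b, the gene lists and the tests were chosen with earlier results of these data known. Genes are named by the files, with symbols updated through RefSeq for 3462 synonyms. The named genes were Bcl11b, its 5 nearest named genes on each side, genes at breakpoints, the 5 likest genes on and off chromosome 12, and list members. Meg3, Dlk1 and Rtl1 were named as neighbours, and Rin3, Dicer1 and Tcl1 in addition, after their values were seen. Normexp was run on median signals, since only part of the files hold mean signals. It had an offset of 50 and no dye normalisation. The start position of the loss in L6 is not reported here.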

Additional observations from a re-analysis of the deposited data

Results flagged for a closer look

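For the 8 lymphomas 35 measures were searched for an array that stood apart, with a gap to its nearest neighbour above Dixon's 95% limit for 8 samples. There were 12 such measures. Chance gives about 1 in 20 for separate measures, but most of these read the same stretch of chromosome 12 and overlap. Bcl11b was also chosen for its loss in these arrays, so the count is a description and not a test. In 11 of the 12 measures the array was L1, and it was the highest each time. The mean over the 15 Bcl11b probes in L1 was -0.13, where the next lymphoma was at -0.61. The segment over the gene was at -0.18, the 5 probes of the low-coordinate end at -0.18 and the middle 5 at -0.047. The flanks of the gene in L1 were at -0.43 on the low-coordinate side and -0.18 on the high-coordinate side. Probe 1 was at -0.041, probe 7 at 0.0085 and probe 15 at -0.048. Among the neighbouring genes Setd3 was at -0.23 and Evl at -0.15 in L1. The remaining measure was the noise of neighbouring probes, which was 0.37 in L3, where the next lymphoma was at 0.23. The 14 mice without lymphoma were too many for this search.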

How the results depend on the processing

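The Bcl11b mean in lymphoma was -0.32 with normexp, with losses called in 4 lymphomas and 0 other mice. At thresholds of -0.3 and -0.4, losses were called in 2 and 1 of the mice without lymphoma. With any segment over the gene allowed to make the call, added after seeing the data, losses were called in 4 mice without lymphoma, and in 5 at a threshold of -0.2. The Bcl11b difference was -0.53 over all arrays, -0.30 with normexp, and -0.27, -0.15 and -0.90 within scan batches 1, 5 and 6. In each of these 3 batches 1 of the groups had a single array. Without bridging, an alternative added after seeing the data, the median start of the loss in lymphoma was 101.5 Mb, against 98.5 Mb with it. No alternative tried turned the sign of the Bcl11b difference, which was also -0.59 without L1 and -0.44 after subtracting each array's chromosome 12 median, both added after seeing the data.

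The limma counts moved more, and the cause was not tested. Against 867 higher and 326 lower genes, there were 96 lower genes with centring on the mode, 571 higher and 69 lower with normexp, 374 higher and 52 lower with scan batch as a term, 130 lower without scan batch 2 and 641 lower with the sign of N3, N4 and N9 turned. The share of higher among called genes was 72.7%, and 91.1% with centring on the mode. Among the T-lineage genes 2 were higher with centring on the mode. Both lists had 0 higher members with normexp, with no minimum of probes per gene, with scan batch as a term, without scan batch 2 and without N3, N4 and N9, and 1 cofactor was lower with the sign of N3, N4 and N9 turned. Over the alternatives limma's adjusted p was 0.0198 to 0.352 for Gatad2a and 0.0464 to 0.496 for Notch1. No paired analysis was possible because the labels give no replicate numbers that the groups share.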
